A study of Mus musculus with 20 samples.

Results

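Adipokines are proteins that fat tissue releases into the blood, and 8 of their genes are described here: Lep, Adipoq, Retn, Cfd, Rbp4, Nampt, Rarres2 and Agt. They were found by the gene name in the scanner files, which gave 9 probes of 7 genes. Nampt stands in those files under its older name, Pbef1, and was matched through its RefSeq accession, which made 11 probes of 8 genes, out of 41174 probes with 28501 distinct gene names or identifiers, controls left out. The study compared liver and white adipose tissue (WAT) of mice with and without the nuclear receptor RORα on a high fat diet, to address its part in inflammation and insulin resistance of obesity. The sg/sg mice were homozygous for staggerer, a spontaneous deletion that disrupts Rora, which encodes this receptor, and the WT mice were wild type. All mice of the 4 groups (sg/sg WAT, WT WAT, sg/sg liver and WT liver, with 5 arrays each) were male C57BL/6 animals, 5 months old, and had eaten a diet of 35% fat for 6 weeks, so no group on a plain diet was compared. The allele is inherited and present in all tissues, so the arrays do not separate a loss in fat or liver cells from a loss elsewhere. The labels do not name the fat depot. The design text counts 5 mice of each genotype, so both tissues may come from the same mice, but no label ties a liver array to a WAT array and the comparison between tissues treats them as separate.

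Leptin, the product of Lep, reports the size of the fat stores to the brain, and its transcript is known to increase as fat cells grow. Adiponectin (Adipoq) promotes fat oxidation and insulin action, and in obesity its level in blood is known to fall. Resistin (Retn) opposes insulin action in mice. Adipsin (Cfd) is the serine protease that starts the alternative complement pathway by cutting factor B. Rbp4 carries retinol in blood and comes mostly from liver, as do Agt, the precursor of the angiotensins, and Rarres2, the precursor of the chemoattractant chemerin. Nampt is the rate-limiting enzyme of NAD salvage and is also found outside cells.

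Which stretch of a transcript a probe binds decides what its signal can show. The probe of Adipoq, a gene transcribed almost only in fat cells, is printed with those of Retn, which overlap and so do not measure the gene independently. All 3 are 60 bases long, taken from the scanner files and written 5′ to 3′. Capitals mark the 22 bases that the Retn probes share, and the Adipoq probe has no marked part. The Adipoq probe lies at chr16:22816125-22816184, and the Retn probes at chr8:3618557-3619378 and chr8:3618519-3619340, each across an intron, all on the plus strand of build mm7.
Adipoq probe: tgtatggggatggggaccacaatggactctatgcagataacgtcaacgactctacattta
Retn probe 1: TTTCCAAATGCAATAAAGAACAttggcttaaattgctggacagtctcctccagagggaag
Retn probe 2: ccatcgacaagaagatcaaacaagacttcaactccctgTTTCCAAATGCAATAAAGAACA

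The bases before the transcription start were read from RefSeq on build GRCm38.p6, which had a window for 7 of the 8 genes; Rarres2 was the other. Of these windows 4 are shown, those of the genes whose transcripts changed in WAT or bear a ROR motif, other than Adipoq. Each run is 250 bases long and ends at the base before the start. Capitals mark matches, on either strand, to AGGTCA (the core of a ROR response element), TTGCGCAA (a palindrome bound by C/EBP factors) and TATAAA (the TATA box). The windows are chr6:29059971-29060220 (plus strand) for Lep, chr8:124569707-124569956 (minus strand) for Agt, chr10:79890603-79890852 (plus strand) for Cfd and chr12:32820085-32820334 (plus strand) for Nampt.
Lep: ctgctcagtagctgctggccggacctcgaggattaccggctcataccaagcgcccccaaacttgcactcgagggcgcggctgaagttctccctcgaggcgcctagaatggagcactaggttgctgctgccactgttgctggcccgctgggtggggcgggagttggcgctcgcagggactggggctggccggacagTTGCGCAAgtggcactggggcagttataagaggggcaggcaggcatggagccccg
Agt: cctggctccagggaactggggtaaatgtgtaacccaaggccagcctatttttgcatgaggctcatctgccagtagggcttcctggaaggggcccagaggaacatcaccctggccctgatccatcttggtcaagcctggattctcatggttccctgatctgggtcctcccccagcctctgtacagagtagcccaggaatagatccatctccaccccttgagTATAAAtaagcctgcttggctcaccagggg
Cfd: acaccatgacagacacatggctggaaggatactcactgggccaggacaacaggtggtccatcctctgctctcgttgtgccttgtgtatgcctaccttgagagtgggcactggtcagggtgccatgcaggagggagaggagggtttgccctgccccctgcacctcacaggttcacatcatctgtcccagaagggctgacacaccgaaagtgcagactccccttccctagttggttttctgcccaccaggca
Nampt: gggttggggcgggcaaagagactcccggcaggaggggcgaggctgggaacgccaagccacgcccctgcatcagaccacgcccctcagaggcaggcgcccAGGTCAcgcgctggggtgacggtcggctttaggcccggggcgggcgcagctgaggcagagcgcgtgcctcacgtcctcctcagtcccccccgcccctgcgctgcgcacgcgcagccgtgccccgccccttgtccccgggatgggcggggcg
AGGTCA was found for 1 of the 7 genes, Nampt, and in 14.0% of all 32851 windows of this length, while TAGGTCA, the longer ROR motif that contains it, was found for none of the 7 and in 2.23% of windows. TTGCGCAA was found for Lep, 55 bases before the start, and in 0.164% of windows. TATAAA was found for Agt, 30 bases before the start, and for Rbp4, and in 12.4% of windows. A match describes these letters only.

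Levels are log2 intensities with each array's own 75th percentile subtracted, so a difference of 1 is a doubling. Probes entered the test of a tissue if at least 4 of its 10 arrays showed them well above background, and a probe was called when the limma adjusted p, over all probes tested, was under 0.05. The share of probes well above background was 71.9% to 80.3% on sg/sg WAT arrays, 75.3% to 81.1% on WT WAT arrays, 57.3% to 58.7% on sg/sg liver arrays and 56.5% to 62.4% on WT liver arrays. Each of the 3 Rora probes separated the genotypes in both tissues, with less signal on all sg/sg arrays, by log2 changes of -2.72 to -2.75 in WAT and -2.81 to -2.88 in liver; the third probe was not well above background on any sg/sg liver array. Where these probes lie relative to the deletion is not given in the sources used here. Each array came from 1 of 6 slides. The 3 WAT slides each held both genotypes, whereas in liver only slide 2 did, with 3 sg/sg arrays and 1 WT array, so genotype in liver is largely confounded with slide.

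Among the WT WAT arrays, replicate 2 stood apart. It was the lowest WT array for all 11 adipokine probes, and it stood far from the other 4 for Cfd and Retn. Its adipocyte markers summed to 1105 (linear level in units of the array's 75th percentile, 17 genes), against 1379 to 1619 on the other 4 WT arrays. Its macrophage markers summed to 460.3 (17 genes), against 260.9 to 376.9. The test of each adipokine probe in WAT is therefore given with and without this array. Among the sg/sg arrays, replicate 4 was the dimmest, with 71.9% of probes well above background against 75.1% to 80.3% on the other 4, and its brown adipocyte markers summed to 34.8, against 10.95 to 16.2. Without it 3 of the adipokine probes were called in WAT, and Cfd lost its call (0.74, adjusted p = 0.0588).

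In WAT, sg/sg mice had less Lep transcript and more Agt, with smaller gains of Adipoq and Cfd. Of the 11 probes 4 were called, 3 higher and 1 lower, at a background of 21.9% of 32315 probes called (12.8% higher and 9.14% lower). The other 7 probes, of Retn, Rbp4, Nampt and Rarres2, did not pass. The median log2 change of the 11 probes was 0.44, against 0.08 over all probes tested. In liver 2 of the 7 probes tested were called, Agt higher and Cfd lower, at a background of 14.6% (8.1% higher and 6.49% lower). The genotype effect differed between tissues for 3 of these 7 probes, Cfd, Agt and Nampt probe 1, each time higher in WAT, at a background of 19.9% (10.5% higher and 9.38% lower).

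**Figure D1:**
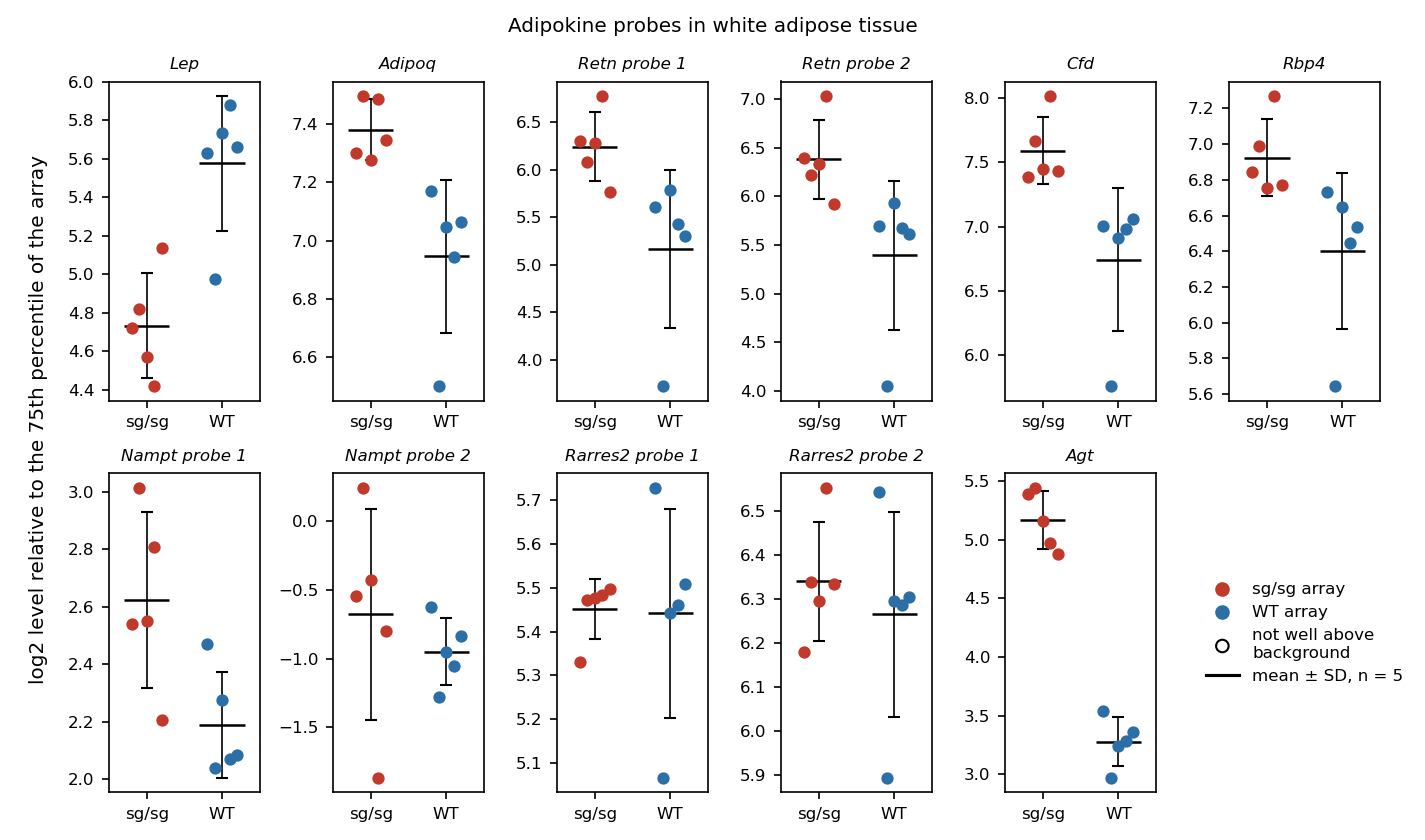
Levels of the 11 adipokine probes on the WAT arrays, 1 point per array, with sg/sg on the left and WT on the right of each panel (bars, mean ± SD, n = 5; log2 relative to the array's 75th percentile, each panel with its own axis). The sg/sg arrays lie above all WT arrays for Adipoq, Cfd, Rbp4 and Agt, and the low WT point in most panels is replicate 2.

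Lep (A_52_P374882, chr6:29005380-29005439, plus strand of mm7) was the only member called lower in sg/sg WAT. Its log2 levels were 4.72, 4.82, 4.57, 4.42 and 5.14 in sg/sg WAT, against 5.63, 4.97, 5.73, 5.88 and 5.66 in WT WAT. The groups overlapped only through sg/sg replicate 5, which was above WT replicate 2. The means were 4.73 ± 0.27 in sg/sg WAT and 5.58 ± 0.35 in WT WAT (SD, n = 5 each), a log2 change of -0.84 (SE 0.19, 95% interval -1.26 to -0.42, 1.79-fold lower, adjusted p = 0.0116). Leaving out WT replicate 2 gave -0.99 (adjusted p = 0.00258). It was -1.07 within slide 4, -0.81 within slide 5 and -0.71 within slide 6. Lep was printed 10 times on each array, and the SD over these spots was 0.02 to 0.06 on sg/sg WAT arrays and 0.02 to 0.07 on WT WAT arrays, which measures the repeat of spots and not the spread between mice. With normexp background correction the change was -1.03 and the call was lost (adjusted p = 0.0748). In liver Lep was not well above background on any of the 10 arrays, and no probe of Adipoq or Retn was on more than 1 array of either genotype.

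Genes of leptin signalling were called in WAT at 20%, near the share of all genes. Of 10 tested in WAT, 2 were higher and 0 lower, at a gene-level background of 23.1% (13.9% higher and 9.26% lower, each gene by its brightest probe), with a median of 0.17 against 0.09 for all genes. The adaptor Sh2b1 was at 0.52 (SE 0.09, 1.44-fold, adjusted p = 0.00299) and the insulin receptor substrate Irs1 at 1.11 (SE 0.19, 2.16-fold, adjusted p = 0.00333). In liver 1 of 9 was called, at a gene-level background of 15.4%: Irs1 at 0.79 (adjusted p = 0.0135). Genotype in liver is largely confounded with slide, so this value cannot be assigned to genotype alone.

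Adipoq (A_51_P458451) was higher in WAT of sg/sg mice by a small amount. Its log2 levels were 7.30, 7.50, 7.28, 7.48 and 7.35 in sg/sg WAT, against 7.17, 6.50, 7.05, 6.95 and 7.07 in WT WAT. All sg/sg arrays were above all WT arrays, and they lay within 0.22 of each other. The means were 7.38 ± 0.10 in sg/sg WAT and 6.95 ± 0.26 in WT WAT (SD, n = 5 each), a log2 change of 0.43 (SE 0.13, 95% interval 0.14 to 0.73, 1.35-fold, adjusted p = 0.0402). The change was 0.32 without WT replicate 2 (adjusted p = 0.044), and it was 0.38, 0.25 and 0.58 within slides 4, 5 and 6. The call was lost in 16 of 23 other settings, among them quantile normalization (0.18, adjusted p = 0.304), median scaling (0.44, adjusted p = 0.136) and normexp (0.23, adjusted p = 0.341, below the median of 0.40 that all genes then had). It was also lost without WT replicate 3, 4 or 5 or sg/sg replicate 1, 2, 3 or 5, each left out alone, at adjusted p-values of 0.0565 to 0.0845.

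Retn showed a larger difference than Adipoq but did not pass the threshold with either probe. Probe 1 (A_51_P233597) read 6.30, 6.08, 6.28, 6.77 and 5.77 in sg/sg WAT, against 5.61, 3.72, 5.78, 5.42 and 5.30 in WT WAT. The groups met at their edges, where sg/sg replicate 5 was just under WT replicate 3. The log2 change was 1.07 (SE 0.37, 95% interval 0.26 to 1.88, adjusted p = 0.0604) for probe 1 and 0.99 (SE 0.35, 95% interval 0.21 to 1.76, adjusted p = 0.0688) for probe 2, A_52_P55972. The close values of these probes are no independent repeat, since they share the bases shown in capitals. Without WT replicate 2 probe 1 was at 0.71 and passed (adjusted p = 0.0322), and probe 2 was at 0.65 (adjusted p = 0.0504). Within slides 4, 5 and 6 probe 1 was at 0.73, 0.72 and 1.73.

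Of 12 genes of adiponectin assembly and signalling tested in WAT, 3 were higher and 1 lower, with a median of 0.18, at the gene-level background of 23.1%. Prkaa1, a catalytic subunit of the kinase AMPK, was at 0.81 (SE 0.10, 1.75-fold, adjusted p = 0.0012), the deacetylase Sirt1 at 0.64 (adjusted p = 0.04) and the adiponectin receptor Adipor2 at 0.45 (SE 0.12, 1.37-fold, adjusted p = 0.0238). Ero1a, an oxidase that helps adiponectin to fold, was at -0.51 (SE 0.11, adjusted p = 0.0101). Of 10 receptors and binding partners of adipokines 4 were called at the same background, of which 2 were higher, Adipor2 and the chemerin receptor Cmklr1 (0.33, adjusted p = 0.0369). Another 2 were lower, the chemerin-binding Ccrl2 (-0.58, adjusted p = 0.0462) and the resistin-binding Cap1 (-0.83, SE 0.18, adjusted p = 0.0109). Without WT replicate 2, Cmklr1, Ccrl2 and Sirt1 no longer passed (adjusted p = 0.0717, 0.0545 and 0.0566). In liver, at a gene-level background of 15.4%, 2 of the 12 assembly and signalling genes were lower and none higher, the adaptor Appl1 at -0.65 (adjusted p = 0.0244) and Prkaa2, the other catalytic subunit of AMPK, at -0.39 (adjusted p = 0.0323), and within slide 2 they were at -0.50 and -0.31.

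Cfd (A_51_P156955, chr10:79672573-79672632, mm7) was changed in opposite directions in the 2 tissues. In WAT its log2 levels were 7.39, 7.66, 7.45, 8.02 and 7.44 in sg/sg mice, against 7.01, 5.75, 6.91, 6.98 and 7.06 in WT mice. All sg/sg arrays were above all WT arrays. The means were 7.59 ± 0.26 in sg/sg WAT and 6.74 ± 0.56 in WT WAT (SD, n = 5 each), a log2 change of 0.85 (SE 0.25, 95% interval 0.29 to 1.41, 1.80-fold, adjusted p = 0.0371). The change was 0.60 without WT replicate 2 (adjusted p = 0.0168), and within slides 4, 5 and 6 it was 0.88, 0.38 and 1.02. The call in WAT was lost in 17 of 23 other settings, including quantile normalization (0.64, adjusted p = 0.0668), median scaling (0.85, adjusted p = 0.0807), normexp (0.65, adjusted p = 0.175) and slide as a fixed block (0.78, adjusted p = 0.0544). It was also lost without WT replicate 1, 3 or 4 or any 1 of the sg/sg replicates, at adjusted p-values of 0.0519 to 0.0726.

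In liver Cfd was far lower in sg/sg mice. Its log2 levels were -5.81, -3.96, -4.76, -5.85 and -2.18 in sg/sg liver, against -0.68, 3.20, 2.99, 1.35 and 2.20 in WT liver. The groups did not overlap, although each spread over more than 3 log2 units, and sg/sg replicates 1 and 4 were not well above background, which leaves the size of the fold imprecise. The means were -4.51 ± 1.52 in sg/sg liver and 1.81 ± 1.57 in WT liver (SD, n = 5 each), a log2 change of -6.32 (SE 0.85, 95% interval -8.20 to -4.44, 80.1-fold lower, adjusted p = 0.00448). With normexp it was -4.70 (adjusted p = 0.00162). Within slide 2, the 3 sg/sg arrays were 7.04 below the 1 WT array, and with slide as a fixed block, which rests on those 4 arrays, the call was lost (adjusted p = 0.324). The genotype effect in WAT minus that in liver was 7.17 (SE 0.94, adjusted p = 6.6e-05), and it was called in each of the 29 other settings that gave it a value.

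Markers of fat cells were mixed in WT liver. Adipoq and Plin1, which coats the lipid droplet of fat cells, were not well above background on any WT liver array, while Cfd and the adipocyte marker Fabp4 were on all 5. The mean log2 level of 17 adipocyte markers was -0.15, 0.92, 0.80, 0.28 and 0.53 in WT liver replicates 1 to 5. By this mean the arrays stood in their order for Cfd, but by the summed level of the same genes they did not. The sums were 874, 843.5, 916.5, 879.9 and 1043, lowest on replicate 2, the highest array for Cfd. In sg/sg liver the means ran from -0.05 to 0.14, in another order than Cfd. The part of fat cells in the Cfd values was not tested. The 17 adipocyte markers summed to 776.3 to 916.5 on sg/sg liver arrays and 843.5 to 1043 on WT liver arrays, ranges that overlap, though 12 to 14 of these genes were well above background on each liver array. Of 13 adipocyte markers tested in liver 1 was higher and 2 were lower, at a gene-level background of 8.65% higher and 6.72% lower. The 2 lower were the droplet proteins Cidec at -3.42 (SE 0.69, 10.7-fold, adjusted p = 0.0154) and Plin4 at -2.66 (SE 0.43, 6.32-fold, adjusted p = 0.00797). Within slide 2 they were at -3.17 and -2.15.

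A second probe beside Cfd moved with it. The probe listed as NAP025923-1 (A_52_P483983, described in the files as unknown) lies at chr10:79672171-79672396 of mm7, 176 bases before the Cfd probe, and the files pair it with no gene. Its log2 levels were -7.35, -5.55, -5.53, -6.87 and -3.66 in sg/sg liver, against -1.87, 2.03, 1.78, 0.18 and 1.16 in WT liver. Every sg/sg array was lower than every WT array, and only sg/sg replicate 5 was well above background among the sg/sg arrays. The change was -6.44 in liver (SE 0.83, adjusted p = 0.00414), imprecise in size because 4 of the 5 sg/sg arrays were not well above background, and 1.28 in WAT (SE 0.29, 2.43-fold, adjusted p = 0.0115). Over the 10 liver arrays its Pearson r with Cfd was 0.998, and 0.986 once the mean of each genotype was removed. The probe was singled out because it was the closest in pattern to Cfd.

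**Figure D2:**
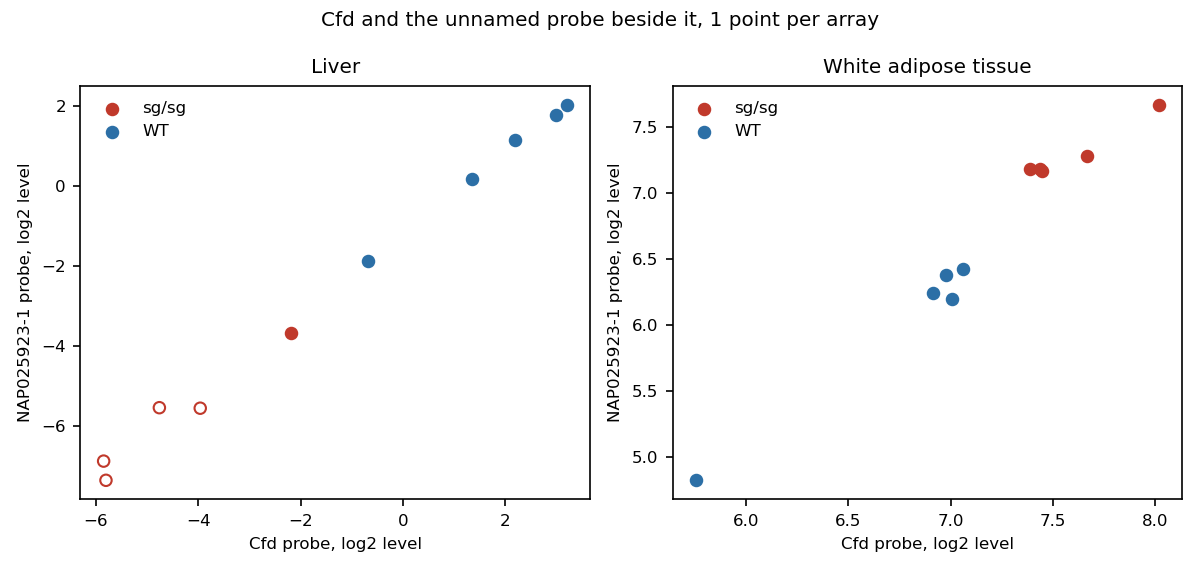
Log2 level of the NAP025923-1 probe (vertical axis) against that of the Cfd probe (horizontal axis) on the liver arrays (left) and the WAT arrays (right), 1 point per array, red for sg/sg and blue for WT; open points were not well above background for at least 1 of the probes. The points follow 1 line in each tissue, with sg/sg arrays at its low end in liver and at its high end in WAT.

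Of 16 other genes of the complement system tested in WAT, most from the alternative pathway, 5 were lower, 2 were higher and 9 did not pass, with a median of -0.69, at the gene-level background of 13.9% higher and 9.26% lower. With normexp 1 was lower and none higher. Factor B, the substrate of adipsin (Cfb), was at -0.78 (SE 0.12, 1.72-fold lower, adjusted p = 0.00229), C4b at -1.18 (SE 0.25, adjusted p = 0.00972) and C3ar1, the receptor of the C3a fragment, at -1.74 (SE 0.33, 3.34-fold lower, adjusted p = 0.00504). The regulator Cd46 was at 0.84 (SE 0.17, adjusted p = 0.00783). C3ar1 is also transcribed in macrophages, and the macrophage markers fell in the same arrays: 13 of 17 were lower and none higher, with Itgax at -3.50 (SE 0.40, 11.3-fold lower, adjusted p = 0.000769). Their summed level was 178.3 to 237.9 in sg/sg WAT and 260.9 to 460.3 in WT WAT, which do not overlap; their part in the complement result was not tested. In liver 1 of 13 was called, at a background of 15.4%: properdin (Cfp), which stabilises the convertase, was at 0.64 (adjusted p = 0.0327; 0.53 within slide 2), and 0 of 13 were called with median scaling or with slide as a fixed or random block. Macrophage markers in the same livers were higher for 5 of 15 and lower for none, with summed levels of 135 to 177.1 in sg/sg liver and 91.0 to 147 in WT liver, and their part in the Cfp value was not tested.

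Rbp4 (A_51_P374752, chr19:37817322-37817381, minus strand of mm7) was not called in either tissue. In WAT its log2 levels were 6.84, 6.99, 6.75, 7.27 and 6.77 in sg/sg mice, against 6.73, 5.64, 6.65, 6.44 and 6.54 in WT mice. All sg/sg arrays were above all WT arrays, by as little as 0.02 between the nearest, and the log2 change was 0.52 (SE 0.21, 95% interval 0.07 to 0.98, adjusted p = 0.0968). Of the 11 probes 4 had groups that did not overlap in WAT, those of Adipoq, Cfd, Rbp4 and Agt, with sg/sg higher each time, at a background of 20.8% of all probes (12.1% higher and 8.71% lower). Without WT replicate 2 Rbp4 was at 0.33 (adjusted p = 0.106). In liver the levels were 9.33, 9.33, 9.20, 9.30 and 9.42 in sg/sg mice, against 8.97, 8.77, 9.16, 8.86 and 9.27 in WT mice, and the ranges overlapped. The change was 0.31 (SE 0.10, 95% interval 0.08 to 0.54, adjusted p = 0.0693), but 0.02 within slide 2 and -0.02 with quantile normalization, and the probe was saturated on sg/sg replicate 3. It passed with normexp (0.32, adjusted p = 0.0325) and without WT replicate 5 (0.38, adjusted p = 0.0293). Of the genes of retinol transport and storage, 1 of 13 was called in WAT, under the gene-level background of 23.1%. It was the retinol dehydrogenase Rdh10 at 0.61 (SE 0.09, 1.53-fold, adjusted p = 0.00188). In liver 0 of 11 were called by limma, at a gene-level background of 15.4%, and 3 had an unadjusted p under 0.05. With normexp 1 of these 11 was higher and 2 were lower.

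Nampt had 2 probes, A_51_P387235 (probe 1, chr12:30690185-30690244) and A_52_P6328 (probe 2, chr12:30678775-30678834), both on mm7, and its difference between genotypes had opposite signs in the 2 tissues. Probe 1 read 2.54, 3.01, 2.55, 2.81 and 2.21 in sg/sg WAT, against 2.47, 2.04, 2.28, 2.07 and 2.09 in WT WAT. The ranges overlapped through sg/sg replicate 5, and the change of 0.44 (SE 0.16, 95% interval 0.08 to 0.79) was not called (adjusted p = 0.0745). In liver probe 1 read 2.0, 2.77, 1.88, 2.48 and 2.19 in sg/sg mice, against 2.25, 2.63, 3.38, 2.40 and 3.04 in WT mice, an overlapping pair of ranges with a change of -0.48 (SE 0.24, 95% interval -1.0 to 0.05, adjusted p = 0.193). The difference of these effects, WAT minus liver, was called at 0.91 (SE 0.29, 95% interval 0.30 to 1.53, adjusted p = 0.0351). It lost the call in 13 of 30 other settings, at adjusted p-values up to 0.118. Those included slide as a fixed block and leaving out WT liver replicate 3 or 5, sg/sg liver replicate 1, 3 or 5, WT WAT replicate 2, 4 or 5 or sg/sg WAT replicate 2.

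Probe 2 of Nampt lies upstream of probe 1 and was dimmer. Its change was 0.27 in WAT (SE 0.33, 95% interval -0.45 to 1.0, adjusted p = 0.601) and -0.60 in liver (SE 0.24, 95% interval -1.13 to -0.07, adjusted p = 0.112), the same signs as probe 1. In WAT the sg/sg arrays ran from -1.87, on replicate 4, to 0.25, more widely than the WT arrays at -1.28 to -0.62. The difference between tissues was 0.87 (adjusted p = 0.153), and 1.17 (adjusted p = 0.0172) without sg/sg WAT replicate 4. Without sg/sg WAT replicate 5 the change of probe 1 in WAT passed (0.54, adjusted p = 0.0298), as it did with slide as a fixed block (0.45, adjusted p = 0.0299). Leaving out WT replicate 2 gave 0.40 (adjusted p = 0.133) for probe 1 and 0.19 (adjusted p = 0.745) for probe 2. Within slide 2 of liver, both probes were lower in sg/sg mice, at -0.83 and -0.88.

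Some enzymes next to Nampt in NAD metabolism differed between genotypes. In WAT 4 of 14 were higher, 2 were lower and 8 did not pass, with a median of 0.13, at the gene-level background of 23.1% (13.9% higher and 9.26% lower). In liver 1 of 13 was higher and 3 were lower, with a median of -0.13, at a gene-level background in liver of 15.4% (8.65% higher and 6.72% lower). Nmnat3, which makes NAD from the product of Nampt, was at 0.75 in WAT (SE 0.14, 1.69-fold, adjusted p = 0.0049) and at -0.55 in liver (SE 0.14, 1.47-fold lower, adjusted p = 0.0265), the signs seen for Nampt; the difference between tissues was not tested for Nmnat3. Its relative Nmnat1 was at -0.29 (adjusted p = 0.041) in liver. In WAT the NAD-dependent deacetylase Sirt3 was at 0.58 (SE 0.11, adjusted p = 0.00628), Naprt, which starts from nicotinic acid, at 0.39 (adjusted p = 0.022), and the NAD-consuming Bst1 at -0.94 (SE 0.26, adjusted p = 0.0291). In liver Nnmt, which methylates nicotinamide and so removes it from salvage, was at 1.07 (SE 0.23, 2.10-fold, adjusted p = 0.0172), and 0.81 within slide 2. With slide as a fixed block 0 of the 13 were called in liver by limma, and 2 had an unadjusted p under 0.05.

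Rarres2 was the member that differed least between genotypes. Probe 1 (A_51_P350311, chr6:48530340-48530399, minus strand of mm7) read 5.33, 5.47, 5.48, 5.48 and 5.50 in sg/sg WAT, against 5.73, 5.07, 5.44, 5.46 and 5.51 in WT WAT, and the WT arrays lay on both sides of the sg/sg arrays. The changes were 0.01 (95% interval -0.26 to 0.28) for probe 1 and 0.08 (95% interval -0.21 to 0.36) for probe 2 (A_52_P466147, chr6:48529826-48530020), and the upper ends of these intervals are folds of 1.21 and 1.28. In liver they were -0.07 (95% interval -0.23 to 0.09) and -0.01 (95% interval -0.18 to 0.16). The sign in WAT was not stable: without WT replicate 2 the probes were at -0.08 and -0.02.

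Several proteases known to cut prochemerin were lower in WAT while Rarres2 was not. Of 10 genes of chemerin activation and reception tested there, 1 was higher and 5 were lower, with a median of -0.46, at the gene-level background of 13.9% higher and 9.26% lower. Among these, the cathepsin Ctsk was at -2.11 (SE 0.36, 4.31-fold lower, adjusted p = 0.00347), Ctss at -1.64 (SE 0.26, 3.12-fold lower, adjusted p = 0.00234), Ctsl at -0.50 (SE 0.10, adjusted p = 0.00704) and urokinase (Plau) at -0.95 (SE 0.18, adjusted p = 0.00499). Ctss and Ctsk are strongly transcribed in macrophages, whose markers fell as given above, and the part of that fall in these values was not tested. In liver, at a background of 15.4%, 1 of 8 was called, Ctsl at 0.32 (adjusted p = 0.0441; 0.22 within slide 2), and 0 of 8 with quantile normalization, median scaling, normexp or slide as a fixed or random block.

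Agt (A_51_P323712, chr8:123143932-123143991, minus strand of mm7) showed the clearest change of the 8 genes. Its log2 levels were 5.39, 5.44, 5.16, 4.97 and 4.88 in sg/sg WAT, against 3.54, 2.97, 3.24, 3.29 and 3.36 in WT WAT. The lowest sg/sg array was 1.34 above the highest WT array. The means were 5.17 ± 0.25 in sg/sg WAT and 3.28 ± 0.21 in WT WAT (SD, n = 5 each), a log2 change of 1.89 (SE 0.15, 95% interval 1.56 to 2.21, 3.70-fold, adjusted p = 0.000192). It was 1.81 (adjusted p = 0.000464) without WT replicate 2, and 1.81, 1.66 and 2.26 within slides 4, 5 and 6. The call held in 20 of 23 other settings, and the other 3 were the fits within 1 slide, which have 3 or 4 arrays each and called no probe at all after adjustment.

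In liver Agt was higher by a smaller amount. Its levels were 7.74, 8.16, 7.84, 8.20 and 8.02 in sg/sg liver, against 7.47, 7.33, 7.30, 7.50 and 7.70 in WT liver, and all sg/sg arrays were above all WT arrays, by 0.04 between the nearest. The means were 7.99 ± 0.20 in sg/sg liver and 7.46 ± 0.16 in WT liver (SD, n = 5 each), a log2 change of 0.53 (SE 0.12, 95% interval 0.28 to 0.79, 1.45-fold, adjusted p = 0.0187). Within slide 2 it was 0.21, and with slide as a fixed block the call was lost (adjusted p = 0.814). Of 13 hepatocyte markers 4 were higher and none lower, at a gene-level background of 8.65% higher and 6.72% lower. They summed to 4361 to 4878 in sg/sg liver and 3066 to 4209 in WT liver. Their median change was 0.29, and also 0.29 with normexp. It was 0.18 with median scaling, 0.05 with quantile normalization and 0.04 with slide as a fixed block. The part of these markers in the Agt and Rbp4 values was not tested. The effect on Agt in WAT minus that in liver was 1.35 (SE 0.19, adjusted p = 9.3e-05) and was called in all 30 other settings. Cfd and Agt were the 2 called members in liver, and their groups were the only ones of the 7 tested probes that did not overlap, at a background of 12.2% of all probes (6.62% higher and 5.56% lower).

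**Figure D3:**
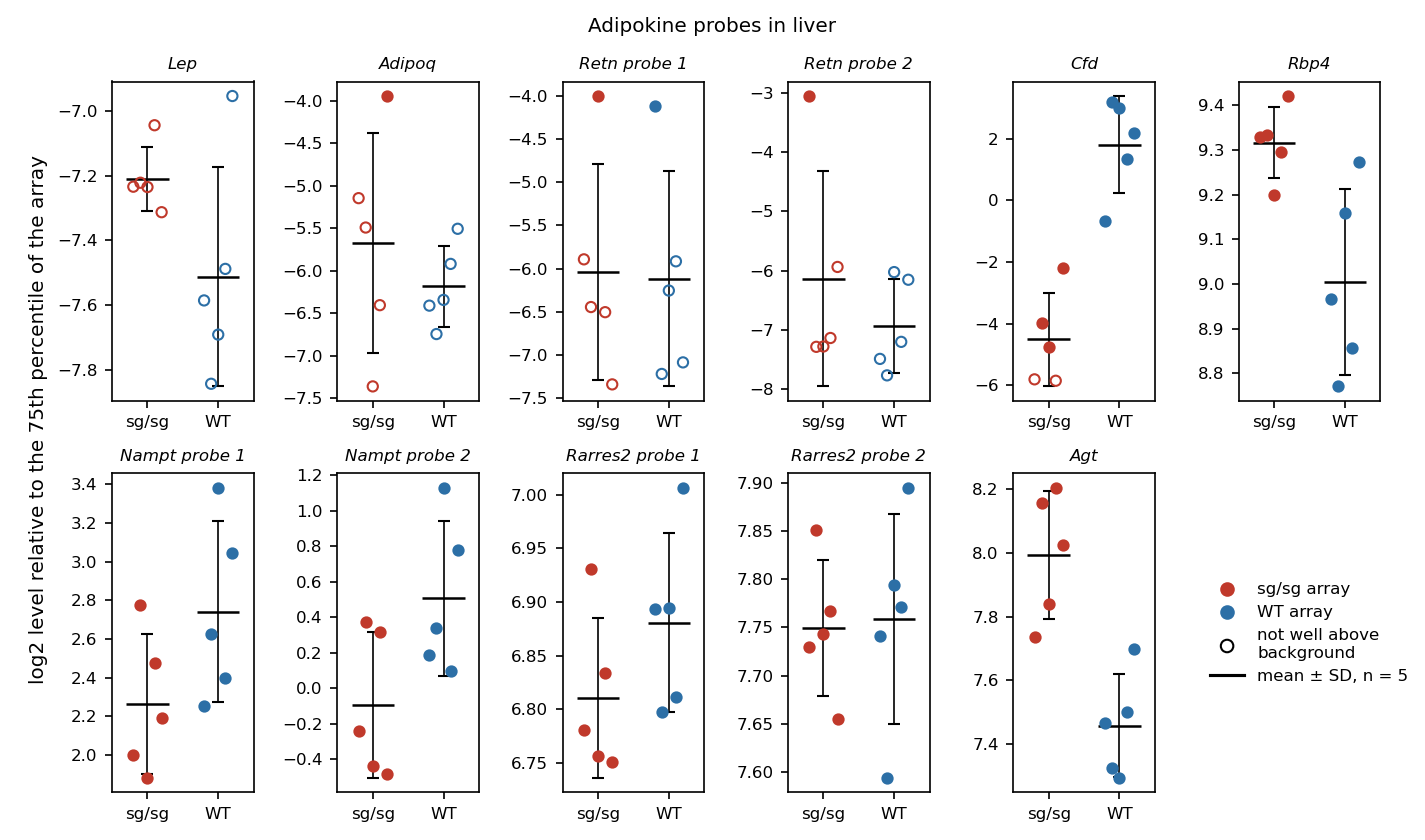
Levels of the 11 adipokine probes on the liver arrays, 1 point per array, with sg/sg on the left and WT on the right of each panel (bars, mean ± SD, n = 5; log2 relative to the array's 75th percentile, each panel with its own axis; open points, not well above background). Neither Cfd nor Agt overlaps between genotypes, with nearest arrays 0.04 apart for Agt, and Lep, Adipoq and Retn are mostly open points.

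Of 14 other renin-angiotensin genes tested in WAT, 3 were higher, 2 were lower and 9 did not pass, with a median of 0.25, at the gene-level background of 23.1%. Renin, Ren1, which cuts angiotensinogen, was at 2.24 (SE 0.58, 4.72-fold, adjusted p = 0.0219), and was well above background on all 10 arrays. The prorenin receptor Atp6ap2 was at -0.43 (SE 0.11, adjusted p = 0.0212) and the peptidase Mme at -0.40 (adjusted p = 0.0301). With WT replicate 2 left out Ren1 was at 2.74 (adjusted p = 0.00292). In liver 1 of 11 was called, at a gene-level background of 15.4%: Mme at -0.90 (adjusted p = 0.0405, and -0.87 within slide 2).

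**Figure D4:**
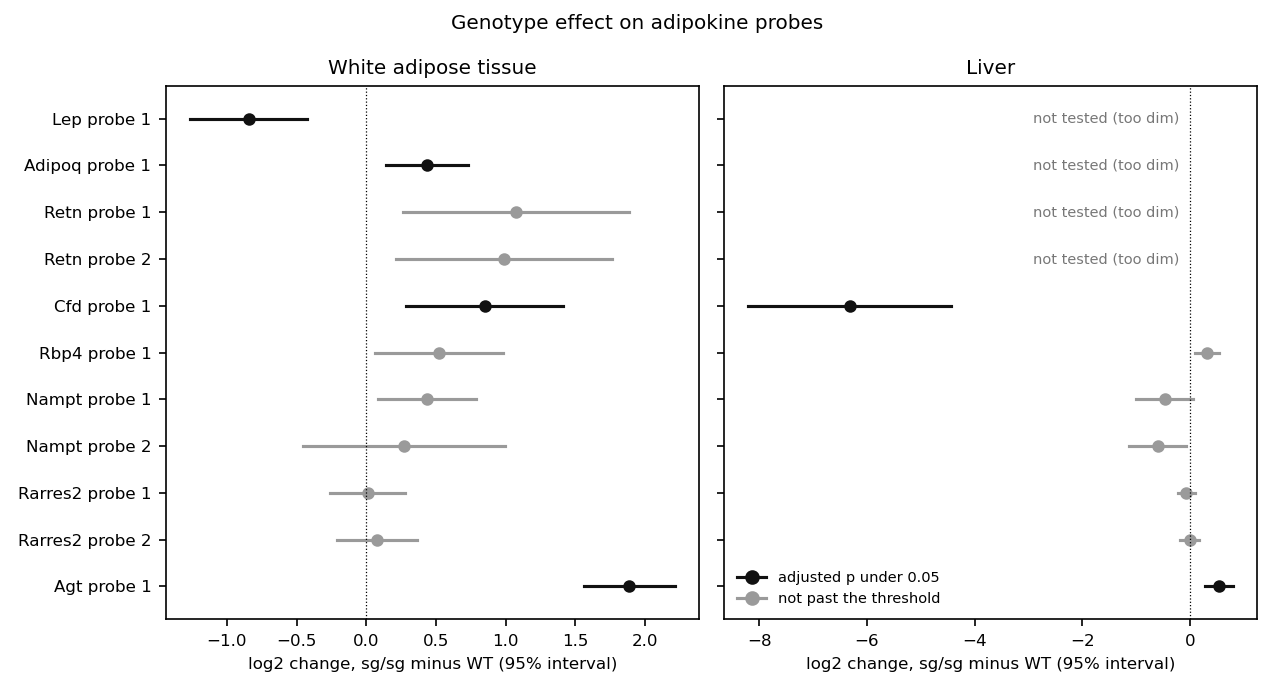
Log2 change, sg/sg minus WT, of each adipokine probe in WAT (left) and liver (right), as points with 95% intervals from limma; black points passed adjusted p = 0.05 and grey points did not, and the panels have different horizontal axes. Lep lies left of 0 and Agt farthest right in WAT, while Cfd lies far left of 0 in liver.

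The markers of cell types differed between genotypes in WAT, where fewer cells of a type and less RNA per cell cannot be told apart. The gene-level background for the counts below was 13.9% higher and 9.26% lower, with a median of 0.09 over all genes. Adipocyte markers were higher for 6 of 17 and lower for none, with a median of 0.40, and summed to 1631 to 2202 on sg/sg arrays and 1105 to 1619 on WT arrays, which do not overlap. Of 16 adipocyte transcription factors 9 were higher and none lower, with a median of 0.62: Pparg, the master factor of fat cells, was at 0.86 (SE 0.15, 1.82-fold, adjusted p = 0.00328), Srebf1 at 0.90 (SE 0.15, adjusted p = 0.00344), Mlxipl at 1.17 (SE 0.22, adjusted p = 0.00499) and Ebf1 at 0.75 (SE 0.14, adjusted p = 0.0051). Lep, which is made by the same cells, fell on these arrays. Mesothelial markers were higher for 4 of 9, with summed levels of 31.4 to 47.1 in sg/sg WAT and 13.5 to 37.3 in WT WAT. Hepatocyte markers summed to 73.1 to 112.4 in sg/sg WAT and 50.7 to 92.1 in WT WAT, against 3066 or more on every liver array. Of these 13 genes 0 were higher and 1 was lower in WAT, with a median of -0.06. Their mean log2 level overlapped, at -3.25 to -1.01 in sg/sg WAT and -3.32 to -0.59 in WT WAT. Fibroblast and preadipocyte markers were higher for 1 of 12 and lower for 5. The part of these shifts in the values of Adipoq, Retn, Cfd, Rbp4 and Agt in WAT was not tested.

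Of 29 other secreted factors of fat tissue tested in WAT, 3 were higher and 11 lower in sg/sg mice and 15 did not pass, with a median of -0.43, at the gene-level background of 13.9% higher and 9.26% lower. The chemokine Ccl2 was at -2.60 (SE 0.27, 6.08-fold lower, adjusted p = 0.000656) and Tnf at -1.56 (SE 0.16, 2.95-fold lower, adjusted p = 0.000655), whereas the growth factor Nrg4 was at 1.15 (SE 0.14, 2.21-fold, adjusted p = 0.00103). Macrophage markers fell on the same arrays, as given above, and the part of that fall in the Ccl2 and Tnf values was not tested. With WT replicate 2 left out, 2 were higher and 13 lower. In liver 2 of 25 were higher and 2 lower, at a gene-level background of 8.65% higher and 6.72% lower. Serpina12 (vaspin) was at -2.05 (SE 0.57, 4.14-fold lower, adjusted p = 0.0373, and -2.22 within slide 2), well above background on 3 of 5 sg/sg arrays. Tgfb1 was at 0.63 (SE 0.11, adjusted p = 0.00884, and 0.40 within slide 2).

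**Figure D5:**
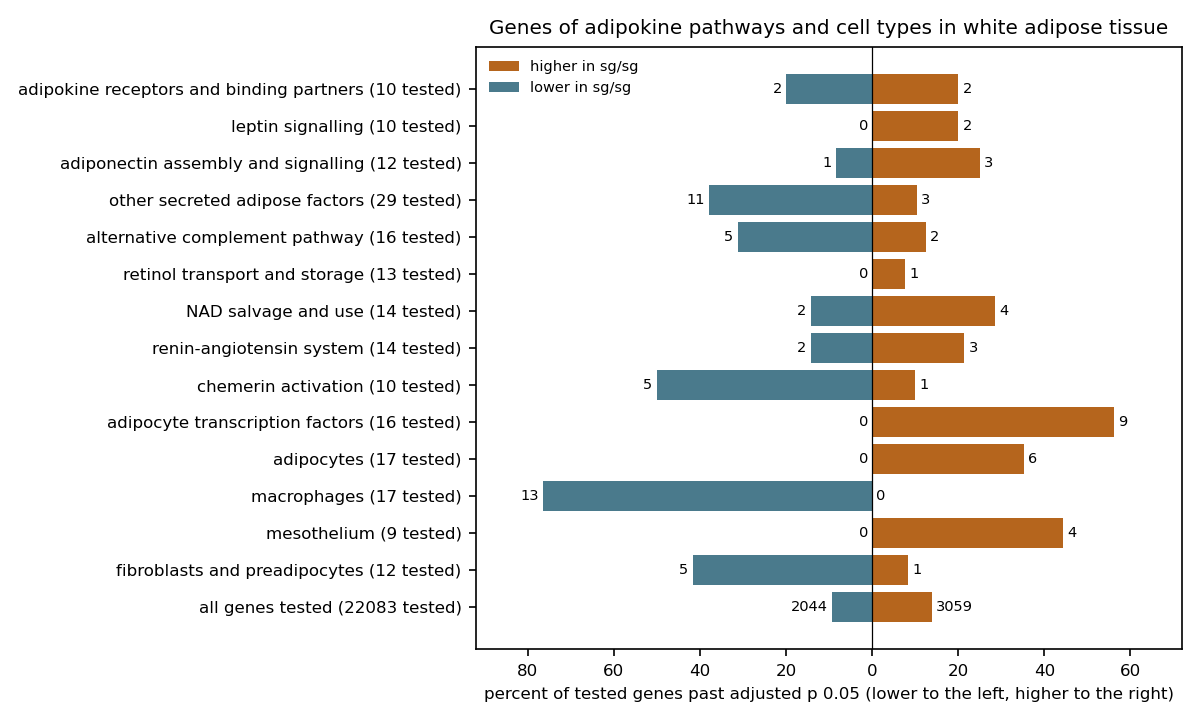
Percent of the tested genes of each list that were called higher (right) or lower (left) in sg/sg WAT, with the number of genes at the end of each bar and all genes tested in the bottom row. Adipocyte transcription factors (9 of 16) and adipocyte markers (6 of 17) were called only as higher, and macrophage markers (13 of 17) only as lower.

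Levels across tissues are given as a description, because liver and WAT arrays were on different slides and tissue cannot be told apart from slide. Lep, Adipoq and both Retn probes were well above background on all WAT arrays and at or near background on the liver arrays, so no size is given for their difference between tissues. Cfd was ordered sg/sg WAT, WT WAT, WT liver and sg/sg liver, with no overlap between neighbours and with WT liver 4.93 below WT WAT. Rbp4, Rarres2 and Agt were higher in liver, where Rbp4 in WT liver was 2.08 above sg/sg WAT Agt in WT liver was 2.29 above sg/sg WAT, and Rarres2 in sg/sg liver was 1.36 (probe 1) and 1.41 (probe 2) above sg/sg WAT, without overlap. Nampt probe 1 did not order the groups beyond their spread, as neighbouring groups overlapped throughout. Neighbouring groups overlapped for Nampt probe 2 as well. Its levels in WT liver (0.10 to 1.13) and sg/sg liver (-0.48 to 0.37) were nevertheless all above WT WAT (-1.28 to -0.62). Those in sg/sg WAT (-1.87 to 0.25) overlapped both liver groups.

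Correlations between members over the WAT arrays depended on WT replicate 2. Over the 10 WAT arrays, which share the genotype difference and WT replicate 2, Pearson's r between Cfd and Adipoq was 0.970, between Cfd and Rbp4 0.972 and between Cfd and Retn 0.962; with the mean of each genotype removed these were 0.934, 0.961 and 0.934. Over the 9 arrays without WT replicate 2, r was 0.920, 0.912 and 0.882, and 0.675, 0.829 and 0.701 with the genotype means removed. For Lep and Adipoq r was -0.44 over 10 arrays and -0.87 over the 9, and with the genotype means removed it was 0.58 and -0.31, so its sign rested on that array. The 2 genes closest to each member by r over all 10 arrays were Fez2 (0.969) and Fam72a (0.967) for Lep, Plin4 (0.993) and Drosha (0.988) for Adipoq, Ubxn2a (0.990) and 1810020D17Rik (0.986) for Retn, and Scd1 (0.988) and the probe NAP025923-1 (0.984) for Cfd. They were Car3 (0.990) and Scd1 (0.983) for Rbp4, Smc1a (0.944) and Snx15 (0.934) for Nampt, Pdrg1 (0.969) and Hbld1 (0.958) for Rarres2, and Slc7a6 (0.992) and AK037375 (0.988) for Agt. In liver the closest to Agt were Itih4 (0.973) and Kctd10 (0.970), and to Cfd the probe NAP025923-1 and Fhit (0.976). These values of r are a description of 10 arrays that share a genotype difference.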

How the data were processed

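Total RNA from liver and WAT was labelled with Cy3 and hybridised to 20 Agilent mouse arrays of 1 colour, with 5 arrays in each of 4 groups taken from the sample titles. The authors obtained the deposited spot intensities from Agilent Feature Extraction 9.5, per the submitters' processing notes and the file headers, which record background subtraction with detrending and surrogate values for dim spots; scaling between arrays is not recorded. The deposited value table holds the same linear intensity, with a highest relative difference of 0 and column medians of 42.5 to 65.6 in liver and 88.8 to 220.8 in WAT, and was one alternative.

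Values are log2 of the processed signal minus the array's 75th percentile. Controls were dropped, outlier spots were set missing and repeated spots of a probe were averaged. Probes well above background on at least 4 of 10 arrays and missing on at most 2 were fitted with lmFit and eBayes of limma 3.58.1 (R 4.3.3) in each tissue, and in all 20 arrays for the difference of genotype effects between tissues. Tests were two-sided, and p-values were adjusted by Benjamini and Hochberg's method across every probe in the fit, with a threshold of 0.05. For lists, the brightest probe of each gene was kept with its adjusted p from that fit. The fits were tested on simulated data. Intervals are 95% intervals of the moderated fit. The number of arrays limits the precision; the labels count 5 mice per genotype, with 1 array per sample, and no pooling is stated.

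Symbols came from the RefSeq table of assembly GRCm38.p6 by accession for 22951 probes and from the scanner file's name for 17938, with 285 having neither. Named list genes are up to 4 called members per pathway list and tissue and up to 3 per cell type list, by smallest p, and further genes are the 2 closest to each member by r. Exceptions are named as such. The members, lists and tests were chosen with earlier results of these data known. Some genes stand in more than 1 list. Alternatives varied the scaling, background correction, dim-probe filter, slide and replicate. Several settings for lists and correlations (normexp, slide as a random block, and leaving out WT WAT replicate 2 or sg/sg WAT replicate 4) were chosen after seeing the data. A few list genes chosen this way are not reported here.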

Additional observations from a re-analysis of the deposited data

Results flagged for a closer look

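In 44 groups of 5 arrays (11 probes, 4 groups), 6 held an array whose gap to the next, divided by the range of the group, was above 0.71, the value that chance passes in about 1 group in 20. In WT WAT, replicate 2 was the low array each time: the ratio was 0.728 for Lep, 0.768 for Retn probe 1, 0.83 for Retn probe 2, 0.887 for Cfd and 0.734 for Rbp4. These 5 share 1 array and are not independent. In sg/sg WAT, replicate 1 was low for Rarres2 probe 1, with a ratio of 0.848, at 5.33.

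The genotype effect differed between tissues for 3 probes by the interaction term of limma. The effect in WAT minus that in liver was 7.172 for Cfd, 1.354 for Agt and 0.911 for Nampt probe 1.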

How the results depend on the processing

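No called adipokine probe changed sign in any setting. Of 7083 probes called in WAT, the count was 1492 with normexp, 4488 with a replicate block and 0 within each of slides 4, 5 and 6 (4786, 5080 and 4312 at an unadjusted p under 0.05). Of 3601 called in liver (1999 higher), the count was 1245 with no filter on dim probes, 1658 with a replicate block, 3 with slide as a fixed block and 0 within slide 2 (2004 and 1965 at an unadjusted p under 0.05); with median scaling, which moved the median of all genes by -0.10, 865 of 3156 were higher. For the difference between tissues, 4834 became 2705 with normexp and 770 with slide as a fixed block. Normexp moved the median of all genes in WAT by 0.31. Leaving out 1 array gave 5038 to 10030 calls in WAT, the highest without sg/sg replicate 4, 3891 to 6262 for the difference and 1171 to 4112 in liver, with 2177, 1540 and 1171 without WT replicates 2, 3 and 4 and 2194 and 2290 without sg/sg replicates 3 and 5.

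Of the adipokine probes, 4 called in WAT became 2 with quantile normalization, median scaling, no filter or a replicate block, 1 with normexp and 0 within each slide (3, 1 and 1 at an unadjusted p under 0.05), and 2 to 5 with 1 array left out (2 without WT replicate 3 or 4 or sg/sg replicate 1, 2 or 3). The 2 called in liver became 0 with slide as a fixed block or within slide 2 (1 each at an unadjusted p under 0.05), 1 where every array had to be well above background, which left out Cfd, and 2 to 3 with 1 array left out. The 3 called for the difference became 2 to 4 with 1 array left out. The cause of these changes was not tested, other than fewer arrays in the fits within a slide. No label pairs the arrays by replicate number. Deviations of sg/sg and WT arrays with the same number correlated at -0.14 to 0.09 in WAT and -0.11 to 0.17 in liver. Between the tissues they correlated at -0.10 to 0.10 for sg/sg and -0.04 to 0.17 for WT, which cannot settle whether a number marks 1 mouse. With a replicate block Adipoq (0.43, adjusted p = 0.117) and Cfd (0.85, adjusted p = 0.0742) lost their calls in WAT.

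With normexp, macrophage markers were lower for 10 of 17 in WAT, adipocyte transcription factors higher for 4 of 16, adipocyte markers higher for 1 of 17, complement genes lower for 1 of 16, chemerin genes lower for 3 of 10, 1 of 14 NAD genes higher, 1 of 14 renin-angiotensin genes higher and 1 lower, 0 of 10 leptin signalling, 0 of 12 adiponectin and 0 of 10 receptor genes called (3, 6 and 2 at an unadjusted p under 0.05), and other secreted factors higher for 3 and lower for 8 of 29. Without WT WAT replicate 2, 12 of 17 macrophage markers were lower, and 8 of 16 transcription factors and 7 of 17 adipocyte markers were higher.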
